A study of Homo sapiens with 16 samples.

Results

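The genes described here are 10 negative regulators of MAP kinase signalling: the dual specificity phosphatases DUSP1, DUSP4, DUSP5, DUSP6, DUSP8, DUSP10 and DUSP16, and the inhibitors SPRY2, SPRY4 and SPRED1. They were chosen by name, mapped by symbol to the gene identifiers of the deposited count table, and are 10 of its 60671 genes. All 10 passed the filter on low counts. The study measured RNA by strand-specific paired-end sequencing in 16 libraries of HEK293, an established human line from embryonic kidney, in 8 groups of 2. Parental cells carried no plasmid. The empty vector group received pcDNA3.0 without an insert, and 6 further groups received pcDNA3.0 holding a cloned LINC01016 transcript, a long non-coding RNA of testis, named T1, T2, CU1, CU2, CU1ENC or CU1ENU in the labels. The transfected cells were given 5 µg of plasmid with Lipofectamine 3000 in 60 mm plates and were collected 48 h later. The labels name no mock-transfected cells, so the plasmid and the lipid reagent cannot be told apart in a comparison with parental cells, and they do not say whether replicates were separate cultures.

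MAP kinases are switched on by phosphorylation of a threonine and a tyrosine in their activation loop, and dual specificity phosphatases remove both phosphates. Sprouty and Spred proteins act further up, between receptor tyrosine kinases and RAF. Many of these genes are transcribed in response to the kinases they restrain, which closes a feedback loop, and DUSP1 also responds to cellular stress as an immediate early gene.

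Library totals ran from 15040770 to 17255935 counts, and mitochondrial genes took 1.15% to 2.42% of them. LINC01016 had 0 or 1 count in the 4 parental and empty vector libraries and 40405 to 192244 counts in the 12 libraries given a transcript. The libraries held epithelial markers at 94 counts or more for CDH1 and 8012 or more for KRT8. Markers of other cell types were mixed: PTPRC had 0 to 2 counts, HBB 0 to 1, COL1A2 0 to 5 and PECAM1 0 to 10, while COL1A1 had 580 to 814, COL3A1 14 to 227, LUM 40 to 144, CD14 18 to 72, VWF 8 to 28 and NEFL 1638 to 2697. The kidney marker PAX8 was at 0 to 4 counts, while LHX1 was at 462 to 700.

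With plasmid alone, 5 of the 10 genes rose against parental cells and none fell: DUSP1 3.76-fold, DUSP8 3.43-fold, SPRY4 2.06-fold, DUSP16 1.70-fold and DUSP10 1.44-fold. Among all 19316 genes tested, 9.41% rose by the same rule, an edgeR quasi-likelihood test with a Benjamini-Hochberg adjusted p under 0.05. With the replicate number as a block, DUSP4 rose too, which made 6 of 10 against 18.4% of all genes. Over the 10 genes the median log2 fold change was 0.65, beside 0.01 over all genes tested. When all 7 transfected groups were averaged, 7 of the 10 rose and none fell, against 15.4% of all genes. With the block, 8 rose, against 23.1% of all genes. Without parental replicate 1 only DUSP1, DUSP8 and DUSP16 kept their calls in either comparison. Without parental replicate 2 SPRY4 kept its calls as well. Without empty vector replicate 2, DUSP10 and SPRY4 lost their calls in the empty vector comparison. Calls over all genes also fell in these fits, and the share of all genes that rose in them is not given. Both comparisons share the 2 parental libraries, so they are not independent. In bulk libraries, fewer cells holding a transcript and less of it in each cell cannot be told apart.

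**Figure D1:**
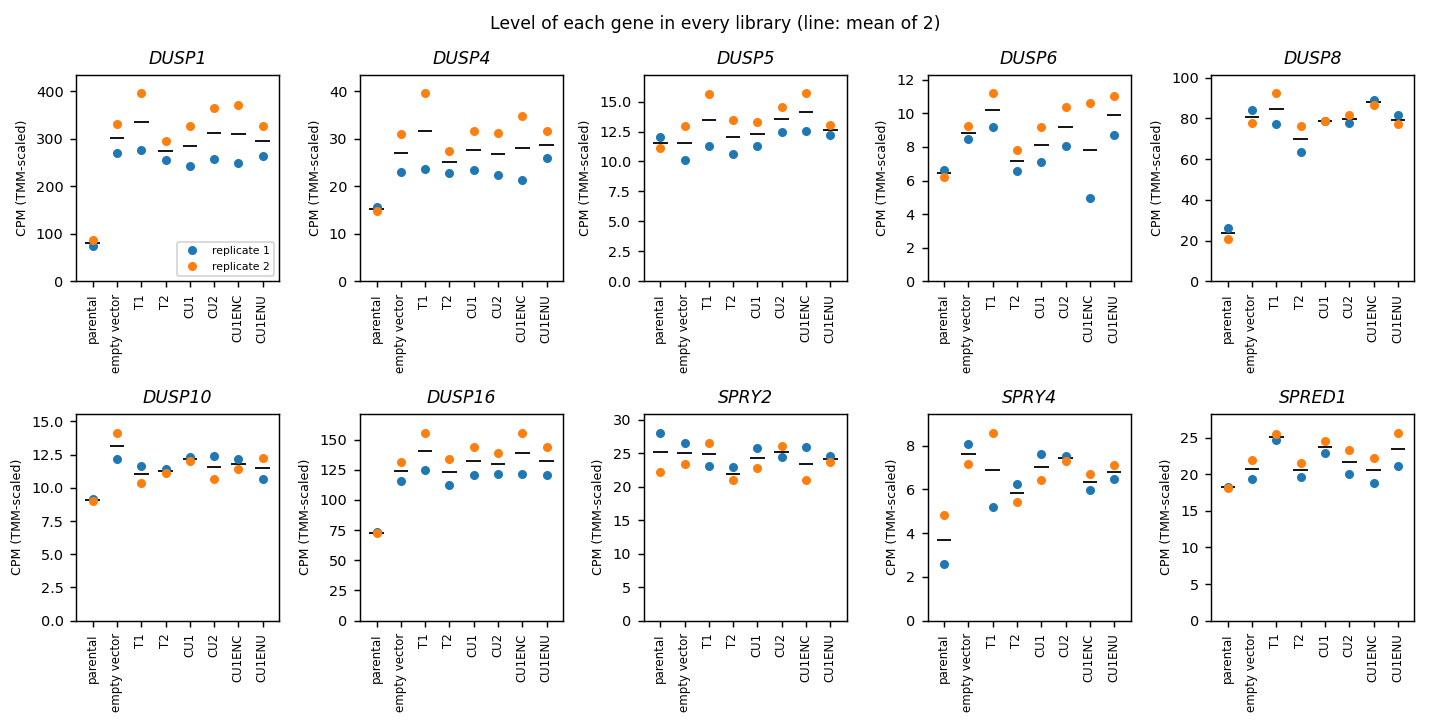
TMM-scaled CPM (y axis, starting at 0) of each gene in each of 16 libraries, by group (x axis). Points are libraries coloured by replicate number and lines are means of 2; DUSP1 lies at 73.9 and 86.2 in parental cells and between 244 and 396 in all 14 transfected libraries.

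The start regions of DUSP1, DUSP8 and DUSP16 are shown because these 3 genes kept their rise under every alternative run, and DUSP1 and DUSP8 rose most. The 250 bases before the annotated start, from RefSeq on GRCh38.p14, lie at chr5:172771196-172771445 for DUSP1, chr11:1572272-1572521 for DUSP8 and chr12:12562864-12563113 for DUSP16, each on the minus strand. Capitals mark every match to the motifs searched, and adjoining or overlapping matches run together.
DUSP1: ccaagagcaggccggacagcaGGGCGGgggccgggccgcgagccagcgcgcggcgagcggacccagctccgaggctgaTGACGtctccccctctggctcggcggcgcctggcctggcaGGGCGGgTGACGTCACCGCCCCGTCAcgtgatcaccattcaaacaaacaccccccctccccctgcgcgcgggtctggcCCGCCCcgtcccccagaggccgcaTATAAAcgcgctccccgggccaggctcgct
DUSP8: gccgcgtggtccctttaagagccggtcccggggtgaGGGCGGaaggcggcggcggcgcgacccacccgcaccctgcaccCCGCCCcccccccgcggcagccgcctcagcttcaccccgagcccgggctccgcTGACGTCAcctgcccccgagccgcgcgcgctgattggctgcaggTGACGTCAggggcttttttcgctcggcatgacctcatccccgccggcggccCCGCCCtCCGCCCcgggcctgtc
DUSP16: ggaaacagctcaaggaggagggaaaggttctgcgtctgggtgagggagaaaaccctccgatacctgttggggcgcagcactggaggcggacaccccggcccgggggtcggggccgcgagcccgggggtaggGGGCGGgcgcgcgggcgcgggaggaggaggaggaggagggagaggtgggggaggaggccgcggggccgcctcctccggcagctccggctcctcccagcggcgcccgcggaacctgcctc
The motifs were searched on both strands: the cyclic AMP response element (CRE) TGACGTCA, its core TGACG, the AP-1 motif TGANTCA, the ETS motif CCGGAAG, the SP1 motif GGGCGG, the TATA motif with the letters TATAAA, and the CArG box. The core overlaps each CRE on both strands. The DUSP1 window held 1 CRE at -125 to -118 from the start and a TATAAA at -30 to -25. The DUSP8 window held 2 CREs, at -118 to -111 and at -74 to -67. The DUSP16 window held 1 SP1 motif, on the sense strand, and no other match. Bases shortly after the start matched a transcript of the GENCODE annotation in DUSP1, but not in DUSP8 or DUSP16. Positions in the DUSP8 and DUSP16 windows therefore rest on the RefSeq start alone. Of 6 genes matched in the RefSeq table (DUSP1, DUSP6, DUSP8, DUSP16, SPRY4 and SPRED1), DUSP1 and DUSP8 held a CRE, which 1.65% of 35116 promoters of the same length held. The core was in DUSP1, DUSP8 and SPRY4 and in 21.2% of all promoters, and the SP1 motif was in 5 of the 6, DUSP6 being the exception, and in 42.6% of all. TATAAA was in DUSP1 and in 10.7% of all promoters. No member window held the AP-1 motif (6.57% of all promoters), the ETS motif (8.52%) or the CArG box (1.16%). The windows are rich in G and C, 74.4% in DUSP1, 76.8% in DUSP8 and 74.8% in DUSP16, beside a median of 58.0% over all promoters. A match describes these letters only and is not a measured binding site. DUSP4, DUSP5, DUSP10 and SPRY2 had no entry.

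DUSP1, an inducible nuclear phosphatase that acts on p38, JNK and ERK, showed the largest rise of the 10. The gene (ENSG00000120129) lies at 172768096 to 172771195 on the minus strand of chromosome 5 (GRCh38.p13) and had 1249 to 6263 counts in a library. Levels of a gene across libraries are given as TMM-scaled CPM, its count over the scaled library total. The level was 73.9 and 86.2 CPM in the 2 parental libraries and 270 and 332 CPM in the 2 empty vector libraries. In replicates 1 and 2 it was 276 and 396 CPM in T1, 255 and 295 in T2, 244 and 326 in CU1, 258 and 365 in CU2, 249 and 372 in CU1ENC, and 263 and 327 in CU1ENU. Every transfected library lay above both parental libraries, and within each transfected group replicate 2 was the higher. The log2 fold change of empty vector against parental was 1.91 ± 0.26 (SE, n = 2 against 2; edgeR adjusted p = 0.000887). Within replicate number 1 the log2 difference was 1.87 and within number 2 it was 1.95. Over all 7 transfected groups the log2 fold change was 1.91 ± 0.22 (edgeR adjusted p = 0.000117).

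DUSP4 and DUSP5 are the other nuclear, inducible phosphatases in the set, DUSP5 being specific for ERK. DUSP4 (ENSG00000120875, chromosome 8, 29333064 to 29350684, minus strand) had 15.6 and 14.7 CPM in parental libraries and 22.9 and 30.9 CPM with empty vector. In the isoform groups its replicates 1 and 2 had 23.6 and 39.5 CPM in T1, 22.7 and 27.4 in T2, 23.4 and 31.7 in CU1, 22.4 and 31.1 in CU2, 21.3 and 34.8 in CU1ENC, and 25.8 and 31.7 in CU1ENU. Parental and transfected libraries did not overlap, but replicates of a transfected group lay far apart. The empty vector change of 0.83 ± 0.30 on the log2 scale did not pass (edgeR adjusted p = 0.0829), with differences of 0.55 within number 1 and 1.07 within number 2. With the replicate block it was 0.81 and passed (edgeR adjusted p = 7.79e-05). The empty vector change passed in 5 of 10 alternatives, among them DESeq2 without the block (adjusted p = 0.0201) and only the groups compared (edgeR adjusted p = 0.00884). The mean of 7 transfected groups passed without the block, at 0.87 ± 0.24 (edgeR adjusted p = 0.0179), but not without parental replicate 1 (0.126) or parental replicate 2 (0.135).

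DUSP5 (ENSG00000138166, chromosome 10, 110497907 to 110511533, plus strand) had 12.0 and 11.2 CPM in parental libraries and 10.1 and 13 CPM with empty vector. Over the 14 transfected libraries its lowest, median and highest levels were 10.1, 12.8 and 15.7 CPM. These overlapped the parental levels, with 10 libraries above both parental libraries and 2 below both. The mean change over 7 groups was 0.14 ± 0.15 on the log2 scale (95% fold interval 0.882 to 1.38; edgeR adjusted p = 0.523).

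DUSP6, a cytoplasmic phosphatase selective for ERK and widely read as a gauge of ERK pathway output, had low counts, 77 to 177 in a library. Its levels (ENSG00000139318, chromosome 12, 89347235 to 89352501, minus strand) were 6.63 and 6.22 CPM in parental cells and 8.46 and 9.22 CPM with empty vector. Over 14 transfected libraries the lowest, median and highest were 4.99, 8.95 and 11.2 CPM. In all, 12 of the 14 lay above both parental libraries, and CU1ENC replicate 1, the lowest, lay below both. The empty vector change was 0.46 ± 0.29 on the log2 scale (edgeR adjusted p = 0.303). The mean change over 7 groups was 0.43 ± 0.22 (edgeR adjusted p = 0.162), and it passed with the replicate block (0.0256) or without CU1ENC replicate 1 (0.0346). An unnamed gene on the opposite strand, ENSG00000274021, shares 28.6% of the DUSP6 exonic bases and had 7 to 36 counts under strand-aware counting.

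Of the phosphatases directed mainly at JNK and p38, DUSP8 rose most. DUSP8 (ENSG00000184545, chromosome 11, 1554051 to 1572271, minus strand) had 26.1 and 21.0 CPM in parental libraries and 84.1 and 77.5 CPM with empty vector. Its replicates 1 and 2 had 77.0 and 92.3 CPM in T1, 63.5 and 76.1 in T2, 78.8 and 78.5 in CU1, 77.6 and 81.5 in CU2, 89.1 and 86.6 in CU1ENC, and 81.6 and 77.2 in CU1ENU. All 14 transfected libraries lay above both parental libraries. The pair of T1 libraries spanned those of every other transfected group except T2, whose libraries both lay lower. Replicate 2 was the higher in 3 of 7 transfected groups. The rise with empty vector was 1.78 ± 0.12 on the log2 scale (edgeR adjusted p = 1.80e-06), 1.68 within number 1 and 1.88 within number 2. The rise over 7 groups was 1.76 ± 0.10 (edgeR adjusted p = 1.93e-07). DUSP8P5, a pseudogene named after DUSP8, had 21 to 50 counts where DUSP8 had 345 to 1460, and how reads fitting both were counted is not stated.

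DUSP16, a JNK-directed phosphatase that shuttles between nucleus and cytoplasm, was the second most abundant of the set per exonic length in parental cells. It (ENSG00000111266, chromosome 12, 12473282 to 12562863, minus strand) had 73.0 and 72.6 CPM in parental libraries and 116 and 132 CPM with empty vector. Its replicates 1 and 2 had 125 and 156 CPM in T1, 113 and 134 in T2, 120 and 144 in CU1, 121 and 139 in CU2, 122 and 155 in CU1ENC, and 121 and 144 in CU1ENU. All 14 transfected libraries lay above both parental ones, with replicate 2 above replicate 1 in every transfected group. The rise was 0.77 ± 0.15 on the log2 scale with empty vector (edgeR adjusted p = 0.00410; 0.67 and 0.86 within numbers 1 and 2) and 0.85 ± 0.12 over 7 groups (edgeR adjusted p = 0.000210).

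DUSP10 (ENSG00000143507, chromosome 1, 221701424 to 221742089, minus strand), a phosphatase of p38 and JNK, had 9.18 and 9.02 CPM in parental libraries and 12.1 and 14.2 CPM with empty vector. Over 14 transfected libraries its lowest, median and highest levels were 10.4, 11.8 and 14.2 CPM, all above both parental libraries. The rise was 0.53 ± 0.15 on the log2 scale with empty vector (edgeR adjusted p = 0.0261; 0.40 and 0.64 within numbers 1 and 2). Without empty vector replicate 2 it was 0.42 and did not pass (0.200), nor did it without either parental library (0.117 for each). Over 7 groups the rise was 0.37 ± 0.12 (edgeR adjusted p = 0.0269), which was lost without parental replicate 1 (0.168) or 2 (0.161).

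Of the 3 inhibitors that act above RAF, SPRY4 rose with empty vector and SPRY2 and SPRED1 did not pass. SPRY4 (ENSG00000187678, chromosome 5, 142310427 to 142326455, minus strand), a Sprouty protein, had 44 to 136 counts in a library. It had 2.60 and 4.81 CPM in parental libraries and 8.09 and 7.17 CPM with empty vector. Over 14 transfected libraries the lowest, median and highest levels were 5.19, 6.92 and 8.60 CPM, so the ranges did not overlap, although the parental libraries differed from each other by 0.86 on the log2 scale. The rise with empty vector was 1.04 ± 0.28 (edgeR adjusted p = 0.0219), but 1.59 within number 1 and 0.56 within number 2. Without parental replicate 1 the change was 0.65 with empty vector (edgeR adjusted p = 0.221) and 0.49 over 7 groups (0.249), against 0.88 ± 0.23 with both parental libraries (0.00984). The empty vector call was also lost without empty vector replicate 1 (0.109) or 2 (0.0668).

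SPRY2 (ENSG00000136158, chromosome 13, 80335976 to 80341126, minus strand), the more abundant Sprouty gene per exonic length, had 28.1 and 22.2 CPM in parental libraries and 26.5 and 23.4 CPM with empty vector. Over the transfected libraries the lowest, median and highest were 21.0, 24.0 and 26.5 CPM, within or just under the parental range. The change over 7 groups was -0.06 ± 0.10 on the log2 scale (95% fold interval 0.821 to 1.12; edgeR adjusted p = 0.705).

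SPRED1 (ENSG00000166068, chromosome 15, 38252836 to 38357249, plus strand), which brings neurofibromin to RAS at the membrane, had 18.3 and 18.1 CPM in parental libraries and 19.4 and 22.0 CPM with empty vector. Its lowest, median and highest transfected levels were 18.8, 22.1 and 25.7 CPM, all above the parental pair, whose levels were nearly equal. The empty vector change was 0.18 ± 0.13 on the log2 scale (edgeR adjusted p = 0.378). The change over 7 groups, 0.28 ± 0.10, passed narrowly (edgeR adjusted p = 0.0476). It passed in 7 of 21 alternatives, and was lost without parental replicate 1 (0.242) or 2 (0.222) and in DESeq2 (0.0691).

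**Figure D2:**
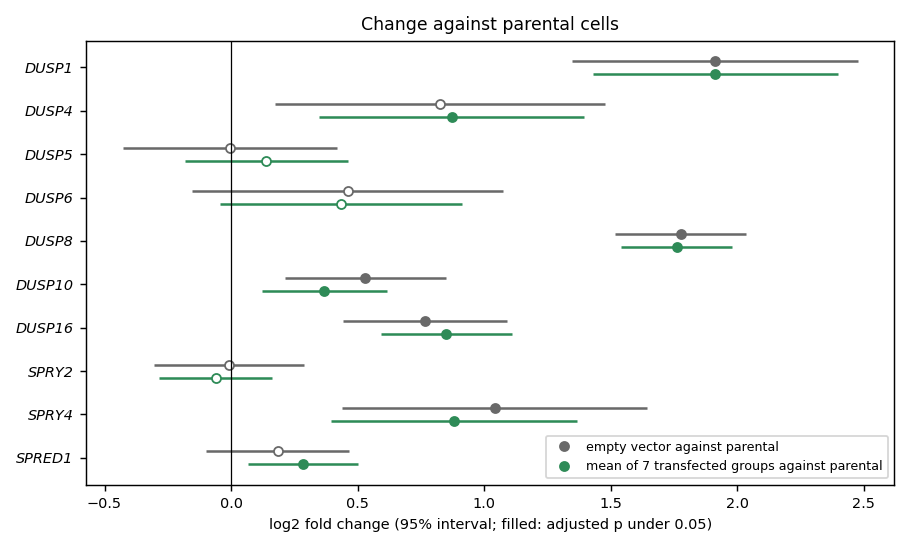
Log2 fold change (x axis) of each gene in empty vector and in the mean of 7 transfected groups against parental cells, with 95% intervals as lines; filled points have an edgeR adjusted p under 0.05. DUSP1 and DUSP8 lie near 1.9 and 1.8, while DUSP5 and SPRY2 lie near 0.

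Per kilobase of exon (RPKM), DUSP1 led in parental cells at 39.8 ± 4.30 (SD, n = 2), followed by DUSP16 at 10.2, SPRY2 at 7.82, DUSP8 at 4.75, DUSP5 at 4.57, DUSP10 at 3.22, SPRED1 at 2.35, DUSP4 at 2.08, DUSP6 at 1.66 and SPRY4 at 0.566. Only the neighbours DUSP8 and DUSP5 overlapped in that order. With empty vector, DUSP1 reached 149.6 ± 21.9 RPKM, and DUSP8, at 16.3 ± 0.946, overlapped DUSP16 at 17.4 ± 1.55 and lay above SPRY2 at 7.77. DUSP10 at 4.65 RPKM overlapped DUSP5 at 4.56, which overlapped DUSP4 at 3.70, and SPRED1, DUSP6 and SPRY4 followed at 2.67, 2.29 and 1.16. DUSP1 made up 48.6% and 54.6% of the summed RPKM of the 10 genes in the parental libraries and 67.3% to 73.7% in the transfected ones.

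**Figure D3:**
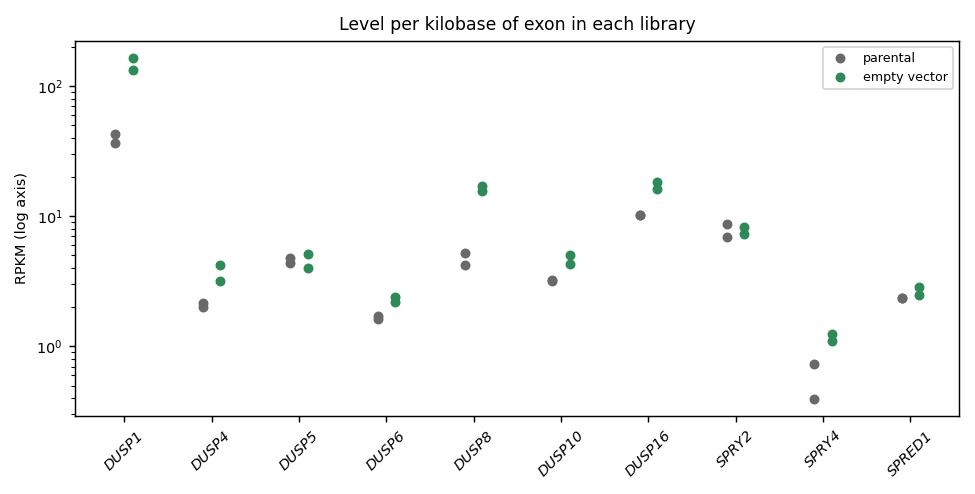
RPKM of each gene (log y axis) in the 2 parental and 2 empty vector libraries, 1 point per library. DUSP1 lies above the other 9 genes in both groups, and DUSP8 reaches the level of DUSP16 with empty vector.

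The remaining pathway genes give the setting of these changes. Their lists were chosen with earlier results of these data known. Of 7 other MAP kinase phosphatase, Sprouty and Spred genes, 3 rose with empty vector and none fell, where 9.41% of all genes rose. The 3 were DUSP7, a phosphatase of the DUSP6 subfamily, at 0.61 ± 0.15 on the log2 scale (edgeR adjusted p = 0.0126), SPRED3 at 0.88 ± 0.22 and SPRED2 at 0.35 ± 0.10. Of 11 atypical dual specificity phosphatases tested, which lack the MAP kinase docking domain, DUSP14, DUSP3 and DUSP12 rose and none fell.

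Of 19 ERK-responsive transcripts, 10 rose with empty vector and 1 fell, with a median log2 fold change of 0.79. They included the transcription factors ETV4 at 2.04 ± 0.25, EGR1 at 1.81 ± 0.22 and MYC at 1.05 ± 0.14, and the immediate early gene IER2 at 1.07 ± 0.14, while EPHA4, an ephrin receptor, fell by 0.68 ± 0.12. Of 34 genes of receptors and the ERK cascade, 2 rose (KSR1, a scaffold, and FGFR4) and 2 fell (FGFR2 and ERBB2), with a median of -0.03. Over all genes tested, 9.41% rose and 6.6% fell. With the replicate block these counts were 14 up and 3 down of 19, and 8 up and 8 down of 34, beside 18.4% up and 15.9% down over all genes, so the cascade counts lie near the background. The difference between the lists was not tested.

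Of the 23 genes of the JNK and p38 cascade, 2 rose and 1 fell with empty vector, with a median log2 fold change of -0.02. Over all genes tested, 9.41% rose and 6.6% fell, so these counts lie near the background. With the block 5 rose and 2 fell, beside 18.4% up and 15.9% down over all genes. MAPK8IP1, a JNK scaffold, rose by 0.67 ± 0.08 and MAP2K3, a p38 kinase kinase, by 0.55 ± 0.16. MAP2K6, the other p38 kinase kinase, fell by 1.58 ± 0.33. The EGF receptor ligands HBEGF and AREG rose, at 1.63 ± 0.29 and 1.39 ± 0.33, as 2 of 8 EGF and FGF ligands tested. ZFP36L2 and ZFP36, which bind AU-rich elements and promote decay of short-lived mRNAs, rose at 0.79 ± 0.12 and 0.93 ± 0.26, as 2 of 3 such factors.

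Levels of markers and interferon response genes in the same libraries were as follows. The summed level of 5 epithelial markers was 812 to 1076 CPM in parental and 1197 to 1481 in transfected libraries. In the mean of 7 groups KRT18, KRT8 and EPCAM rose, by 0.61 ± 0.11, 0.57 ± 0.14 and 0.26 ± 0.06 on the log2 scale, while CDH1 fell by 0.59 ± 0.16 (edgeR adjusted p = 0.0122). Of all genes tested, 15.4% rose and 14.3% fell in the mean of 7 groups. The 7 fibroblast markers summed to 60.1 to 61.7 CPM in parental and 44.8 to 57.8 in transfected libraries. Of the 4 tested, 3 fell in the mean of 7 groups: COL3A1 by 2.19 ± 0.43, PDGFRA by 1.16 ± 0.35 and LUM by 1.02 ± 0.22, while COL1A1 was at 0.22 ± 0.12 and did not pass. The 5 neuronal markers summed to 233 to 247 and 168 to 222 CPM, and of 3 tested NEFL fell by 0.34 ± 0.09 and INA rose by 0.28 ± 0.07. The 9 leukocyte and erythroid markers summed to 1.73 to 1.90 and 2.40 to 4.82 CPM, and CD14, the only member tested, rose by 1.23 ± 0.28. The 10 interferon response genes summed to 56.6 to 69.1 CPM in parental and 136 to 2036 in transfected libraries. None of these 10 passed with empty vector in edgeR, although all 10 changes were positive. An unadjusted p under 0.05 was found for 3 of them, and for 5861 of all 19316 genes. With the block 4 passed, where 18.4% of all genes rose. In the mean of 7 groups against parental cells 2 of the 10 rose, where 15.4% of all genes did. With the block 9 of the 10 rose in that mean, where 23.1% of all genes did. The part of these levels in the changes of the feedback genes was not tested.

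Which LINC01016 transcript the plasmid carried made no difference that passed the test for any of the 10 genes. Of the 10, 0 passed in T1, T2, CU1, CU1ENC or CU1ENU against empty vector, where 0.0104% of all genes did, and 0 passed in CU2, where 0.00518% did. The mean of the 6 isoforms gave 0 against 0.0104% of all genes, and the F-test among isoforms gave 0 against 0%. At an unadjusted p under 0.05 edgeR counted 0 of the 10 in each of these comparisons. Of all 19316 genes it counted from 98 in the F-test to 449 in T2. DESeq2 and edgeR with the replicate block also called 0 at the adjusted threshold. With the block, unadjusted p was under 0.05 for DUSP16 and SPRED1 in T1, DUSP8 in T2 and DUSP16 in CU1ENC, and for DUSP1 and DUSP8 in the F-test. Of all 19316 genes, 567 were under it with the block in T1, 1464 in T2, 422 in CU1ENC and 617 in the F-test. All 6 comparisons share the 2 empty vector libraries.

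A missed threshold does not show that the transcripts act alike, and the intervals give what these libraries could resolve. For DUSP1 the 6 log2 fold changes ran from -0.13 in T2 to 0.16 in T1, and their 95% intervals together spanned -0.67 to 0.70, or -0.28 to 0.30 with the block. For DUSP8 they ran from -0.21 in T2 to 0.12 in CU1ENC, with intervals spanning -0.46 to 0.37, or -0.42 to 0.32 with the block. For DUSP4 the changes ran from -0.10 to 0.23, within -0.74 to 0.86, or -0.37 to 0.48 with the block. DUSP16 ran from -0.01 to 0.18, within -0.33 to 0.50, or -0.14 to 0.31 with the block. DUSP6 ranged from -0.30 in T2 to 0.20 in T1, within -0.91 to 0.80, or -0.71 to 0.58 with the block.

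T2 gave the lowest change for 8 of the 10 genes, DUSP10 and SPRED1 being the exceptions. In T2, 9 of the 10 were below empty vector, with a median of -0.16 on the log2 scale, beside -0.004 over all genes. In T1, 7 of the 10 were above it, with a median of 0.17, beside -0.001 over all genes. The share of all genes that were lowest in T2 is not given. Some members moved together, so these counts are not of separate observations. Over the 14 transfected libraries, Pearson r of DUSP1 was 0.958 with DUSP4 and 0.918 with DUSP16, but -0.257 with DUSP10. DUSP10 had fitted changes of -0.26 to -0.11 on the log2 scale over the 6 isoform groups, but within number 1 CU1, CU2 and CU1ENC were level with empty vector (0.02, 0.03 and 0.00), and without empty vector replicate 2 the mean of the 6 moved from -0.19 to -0.07. SPRY4 had changes from -0.39 in T2 to -0.04 in CU2, with the same sign in both numbers for 4 of the 6. DUSP5 had changes of 0.06 to 0.29, but the mean of the 6 went from 0.17 to -0.00 without empty vector replicate 1, and SPRED1 was highest in T1, at 0.28. None of these passed, and a shared empty vector pair gives all 6 values a common part.

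**Figure D4:**
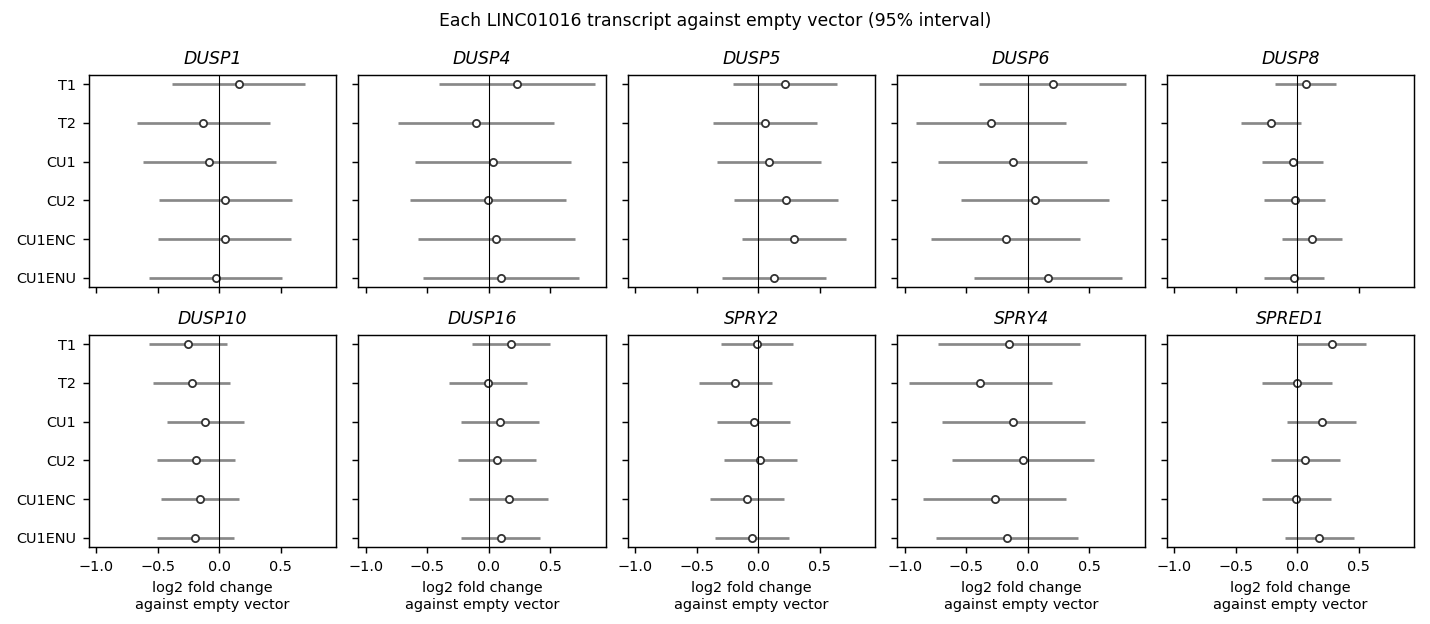
Log2 fold change (x axis) of each gene in each of 6 isoform groups (y axis) against empty vector, with 95% intervals as lines. Open points mark an edgeR adjusted p of 0.05 or more, which every value shown has.

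The replicate number separated the transfected libraries for 6 of the 10 genes. In a fit of group and replicate number over the 14 transfected libraries, DUSP1, DUSP4, DUSP5, DUSP6, DUSP16 and SPRED1 were higher in number 2, and each was higher there in 7 of 7 groups. Of 19103 genes tested, 17.5% were higher in number 2 by the same rule. The log2 difference was 0.40 ± 0.04 for DUSP1 (edgeR adjusted p = 1.76e-08), 0.48 ± 0.06 for DUSP4 and 0.25 ± 0.03 for DUSP16. It was 0.29 ± 0.07 for DUSP5, 0.39 ± 0.10 for DUSP6 and 0.17 ± 0.06 for SPRED1 (edgeR adjusted p = 0.0174; 0.0524 in DESeq2). For DUSP1, DUSP4, DUSP5 and DUSP16 the 7 libraries numbered 1 all lay below the 7 numbered 2. The share of all genes split in this way, or higher in 7 of 7 groups, is not given. Of all genes tested, 35.1% differed by number in either direction. DUSP1, for example, spanned 244 to 276 CPM in number 1 and 295 to 396 CPM in number 2.

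The other 4 genes did not pass. DUSP8 differed by 0.04 (edgeR adjusted p = 0.462), DUSP10 by -0.02, SPRY2 by -0.08 and SPRY4 by 0.05, with 2 or 3 of 7 groups higher in number 2. DUSP8, which rose 3.43-fold with empty vector, had its replicates of CU1 at 78.8 and 78.5 CPM, where those of DUSP1 were at 244 and 326. In parental cells number 2 minus number 1 was 0.22 for DUSP1, -0.09 for DUSP4, -0.11 for DUSP5, -0.09 for DUSP6, -0.01 for DUSP16 and -0.02 for SPRED1. Whether the difference between numbers itself differed between transfected and parental cells was tested with an interaction term, chosen after these values were seen. None of the 10 passed, where 0.0621% of all genes did, and DUSP4 had the lowest p (0.00374; edgeR adjusted p = 0.393). At an unadjusted p under 0.05 there were 4: DUSP4, DUSP8, DUSP16 and SPRY4. The share of all genes at that unadjusted threshold is not given, so these 4 cannot be set against a background.

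Other measures moved with the replicate number. The mitochondrial share was higher in number 1 in all 8 groups, at 2.42% against 1.15% in parental cells and 2.28% against 1.34% with empty vector. Genes with a count numbered 26572 to 27461 in number 1 and 25529 to 26293 in number 2. LINC01016 counts were higher in number 1 in all 6 isoform groups, for example 175196 against 99527 in CU1. All 10 interferon response genes were lower in number 2, with a median log2 difference of -2.03, and their summed level was 784 to 2036 CPM in number 1 and 136 to 801 CPM in number 2 of the transfected groups. Of the ERK-responsive transcripts, 10 were higher in number 2, among them CCND1, EPHA2 and FOSL1, and 3 were lower (LIF, FOS and IL17RD). Of the 34 ERK cascade genes 11 were higher and 3 lower, where 17.5% of all genes were higher and 17.6% lower. The part of any of these in the difference between numbers was not tested, and the labels do not say what a number marks.

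**Figure D5:**
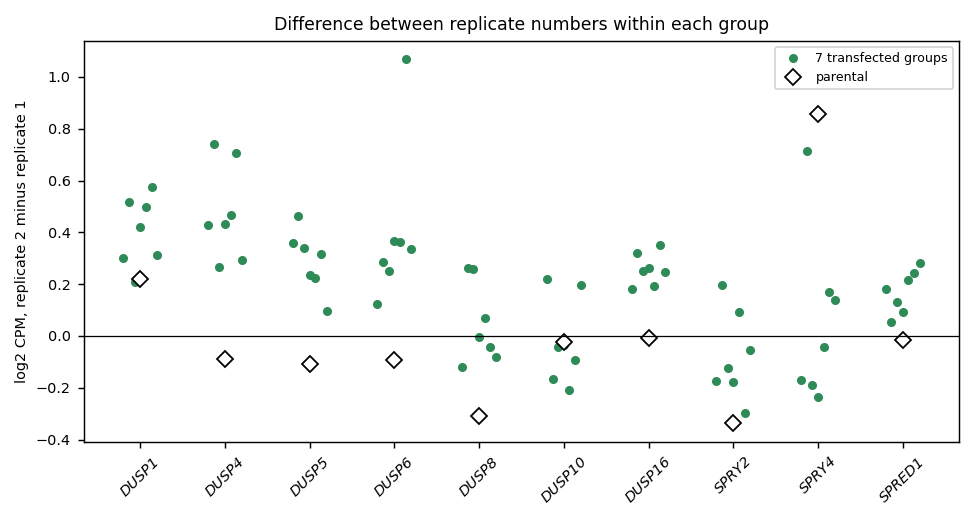
Log2 CPM of replicate 2 minus replicate 1 (y axis) within each of 7 transfected groups (filled points) and within parental cells (open diamonds), by gene. All 7 points lie above 0 for DUSP1, DUSP4, DUSP5, DUSP6, DUSP16 and SPRED1, and on both sides of 0 for the other 4 genes.

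The genes with the most similar pattern over the 16 libraries differed by member. Similarity was the Pearson r of log2 CPM among genes with a mean log2 CPM of at least 1. Genes without a symbol, or with an identifier, clone-type or LINC name, were left out. For DUSP1 the nearest were TNFRSF12A (r = 0.999), GADD45B (0.996) and EPHA2 (0.994). Over the 14 transfected libraries alone, r was 0.989, 0.959 and 0.976. DUSP16 was nearest to HERPUD1 (0.989, and 0.945 in transfected libraries), and DUSP4 to TRIM8 (0.987 and 0.978). DUSP8 was nearest to KDM6B and ATF3 over 16 libraries (0.989 and 0.983), but r fell to 0.735 and 0.451 over the transfected 14. The nearest genes to SPRY4, SPRED1 and DUSP5 were RNF111 (0.928), PIGA (0.905) and PKP4 (0.900), and those to DUSP6, DUSP10 and SPRY2 were PWP2 (0.858), GPCPD1 (0.854) and WRAP73 (0.842). These are descriptions only: the libraries share a split between parental and transfected cells and a split between replicate numbers. Each nearest gene was also picked from all those compared.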

How the data were processed

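The values deposited by the authors are unnormalized whole counts for every gene in 16 libraries. Per the file headers, featureCounts 2.0.1 counted read pairs over the exons of each Ensembl release 101 gene, strand option 2. Per the submitters' processing notes, HISAT2 and DESeq2 were used with GRCh38.p13, while versions, settings and the treatment of multi-mapped reads are not stated in the labels or headers. Groups and replicate numbers came from sample titles, and 0 columns lacked a sample. Symbols were given to 60401 of 60671 genes by identifier.

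A total of 19316 genes passed filterByExpr (at least 10 counts, total at least 15), and TMM factors were 0.974 to 1.03. edgeR 4.0.16 in R 4.3.3 tested 8 group means over all libraries by quasi-likelihood F-tests (8 residual degrees of freedom, 7 with the block), adjusted over all genes tested by Benjamini-Hochberg, with a threshold of 0.05. The SE comes from the F statistic (size of the log2 fold change over the root of F), and so do the 95% intervals. DESeq2 1.42.0 was an alternative. RPKM is TMM-scaled CPM per kilobase of exonic length in the table. The scripts were tested on simulated data. The smallest p of an exact permutation test of 2 against 2 libraries is 0.333, and the model instead shares the spread over genes.

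All 10 genes are named. From each other list, up to 4 genes of lowest p in each direction were named for empty vector against parental and up to 3 elsewhere. The genes and lists were chosen with earlier results of these data known. Deviations from group means of libraries with the same number correlated over 0.1 in 28 of 28 pairs of groups (0.162 to 0.442, median 0.248), so numbers pair the libraries. This pairing comes from the data and not from a label. Replicates of a group differed beyond sampling noise (chi-square per degree of freedom 6.21 in T2 to 17.0 in T1), so each counts as a sample. Since separate cultures are not stated, p-values reflect only how these libraries vary, possibly for technical reasons. Alternatives were the replicate block, RLE scaling, no low-count filter, only the groups compared, DESeq2, and leaving out each library.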

Additional observations from a re-analysis of the deposited data

How the results depend on the processing

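With the replicate block, 6 of the 10 genes rose with empty vector and 8 in the mean of 7 transfected groups, where 5 and 7 did without it: DUSP4 joined in the first (adjusted p = 7.79e-05) and DUSP6 in the second (0.0256), and the pairing changed no other call of a member. Leaving out 1 library at a time gave 3 to 4 of the 10 genes with empty vector and 3 to 8 in the mean of 7 groups. DUSP1, DUSP8 and DUSP16 kept their calls in 10 of 10 and 21 of 21 alternatives. Among 1470 recomputed member values, 36 changed side of the threshold. None past the threshold in either fit changed sign, and 99 past it in neither did. Without the low-count filter DUSP10 lost its call in both comparisons (0.106 and 0.125), and DUSP4 gained one with empty vector (edgeR adjusted p = 1.38e-05). Over all genes, empty vector against parental called 3092, 6626 with the block and 1365 to 1551 without 1 of its libraries. The mean of 7 groups called 5744, 8826 with the block, and 2498 or 3215 without parental replicate 1 or 2. Leaving out a library left its group with 1, which was assumed to vary like the others. The cause of these shifts was not tested, apart from the fewer libraries. Using only the groups compared does not apply to the mean of 7 groups, which uses all 16 libraries. Scaling by deposited totals moved group levels by at most 1.19%, and 3 of 80 by 1 SD or more. DUSP6 and SPRY4 had the fewest counts, 44 to 177 a library, with SEs of 0.29 and 0.28 for empty vector against parental, and DUSP4 had an SE of 0.30 at 241 to 625 counts.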
